A study of Mus musculus with 2 samples.

Results

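Long non-coding RNAs (lncRNAs) are transcripts without a coding frame, and 200 of them are described here in fetal mouse germ cells. The members were chosen by level: among autosomal genes that GENCODE lists as lncRNAs, without the imprinted H19, Meg3, Rian, Mirg, Kcnq1ot1 and Airn, they are the 200 with the highest group mean in any of the 10 groups. Levels are given as CPM, a gene's count as parts of 1e6 counts of its library. They are 200 of 7382 such genes in the table, of which 6982 had at least 1 count, and they held 64.35% of all lncRNA counts and 0.566% of all counts.

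Germ cells came from wild-type mice that carried an Oct4-eGFP transgene (Swiss by a 129svJT2 background) and were sorted for GFP. Each culture held a gonad with its mesonephros, the mesonephros was removed after culture and several gonads were pooled for each library. Dead cells were left out of the sort, and any live cell with an active transgene could enter it. Gonads were taken at E12.5, which is 0 h. Groups of 4 libraries each were XX and XY cells at 0 h, XX and XY cells after 24 and 72 h with the vehicle DMSO, and XY cells after 24 and 72 h with 500 nM of either inhibitor. FGFRi is BGJ398, which blocks fibroblast growth factor receptors, and MEKi is PD0325901, which blocks the kinases MEK1 and MEK2 further down the same signalling route. Library totals ran from 1178953 to 5199153 counts. The libraries were sequenced in 2 pools: the 0 h groups, both 24 h DMSO groups and MEKi at 24 h in one, FGFRi at 24 h and all 72 h groups in the other. Differences between 72 h and 0 h, and between FGFRi and DMSO at 24 h, therefore cannot be told apart from a difference between pools.

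At this stage XX germ cells enter meiosis while XY germ cells stop dividing and take up a male programme. lncRNAs can act in the nucleus as scaffolds of nuclear bodies, carry small RNAs in their introns, or be transcribed from the start of a coding gene in the other direction. Many have no known function, and for those only the position is given here. Pooled cells do not separate fewer cells with an RNA from less RNA per cell.

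The labelled cell type matched its markers. Summed germ cell marker levels were between 1840 and 4466 CPM in the group means, while Sertoli cell markers lay between 6.37 and 33.7 CPM, granulosa cell markers between 4.44 and 19.4 CPM and Leydig cell markers between 7.37 and 26.3 CPM. Stromal markers were at 26.8, 13 and 61.8 CPM in XX cells at 0, 24 and 72 h and at 53.6, 21.3 and 70.8 CPM in XY cells, and at 39.4 CPM with FGFRi and 71.7 CPM with MEKi at 72 h. Blood markers summed to 276 CPM with MEKi at 24 h against 73.8 CPM with DMSO, and to 145 CPM in XY against 35.2 CPM in XX cells at 0 h. The endothelial list fell from 110 CPM in XX cells at 0 h to 6.84 CPM at 72 h, most of it Pecam1, which germ cells also express. Cdh5 of that list went from 2.29 CPM at 0 h to 10.1 CPM at 72 h with DMSO in XY cells. At 72 h Cdh5 was at 0.255 CPM in XX cells and at 2.01 CPM with MEKi. The part of these other cell types in the results that follow was not tested.

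Malat1, a nuclear RNA found at splicing speckles, had the highest level, with a group mean of 2935 CPM in XY cells at 72 h. The 200th member, 4930412C18Rik, reached 15.5606 CPM. Just above it stood Gm45027 at 15.5629, Gm5165 at 15.5723, 1700003G18Rik at 15.6831 and Gm17259 at 15.7378 CPM. Just outside stood Gm45890 at 15.5453, 1700006J14Rik at 15.4369, 2310043M15Rik at 15.4062, Gm40987 at 15.3492 and Platr22 at 15.34 CPM, so the edge of the list marks no gap. In 19 members every group mean was above the 200th value, among them Malat1, Norad, Gas5 and Snhg1. The counts are of molecules primed at the poly(A) tail, so a CPM value is not scaled by transcript length.

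XX cells at 72 h were the highest group for 104 members, more than any other group. XY cells at 72 h with DMSO were highest for 23, FGFRi at 24 h and at 72 h for 14 each, XY cells at 0 h for 11, XX cells at 0 h and MEKi at 24 h for 9 each, XY cells at 24 h with DMSO for 8, MEKi at 72 h for 6 and XX cells at 24 h for 2. A choice by the highest group favours genes that are high in 1 group, so counts of members that differ between groups are descriptions and not evidence about lncRNAs as a class.

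**Figure D1:**
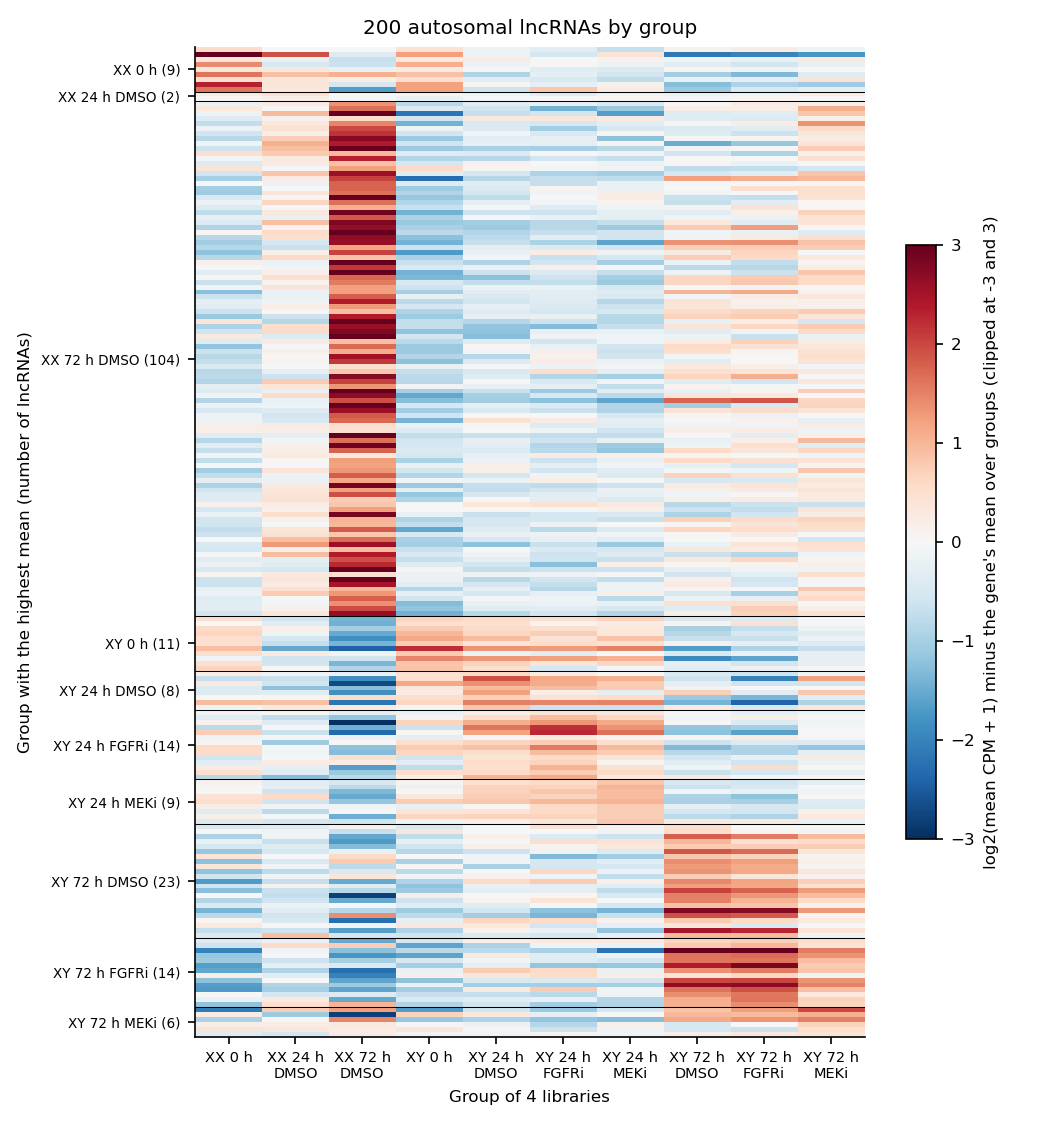
Group mean CPM of the 200 members across the 10 groups, shown as log2(mean CPM + 1) minus the gene's mean over groups and clipped at -3 and 3, genes ordered by the group in which they were highest. The block of genes highest in XX cells at 72 h holds 104 of the 200.

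Of all members, 72 started within 1 kb of a coding gene on the opposite strand (divergent), 47 overlapped a coding gene's exon on the opposite strand, 5 lay antisense within an intron, 16 overlapped a coding gene on the same strand, 5 followed one within 5 kb and 55 stood apart. Divergent genes were 56 of the 104 members highest in XX cells at 72 h (53.85%) and 16 of the other 96 (16.67%). Among tested lncRNAs that are no members the share was 30.92%. Members had a median of 3 exons, and 34 had a single exon.

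The bases around the annotated starts are shown for 7 members because the share of CpG-rich starts differed between members higher in XX and in XY cells. They are the 3 members with the largest difference in either direction between XX and XY cells at 72 h, and Gm16759, the most abundant of the 8 with the largest difference toward XX cells. The windows run from 250 bases before to 50 bases after the outermost annotated start, read 5′ to 3′ on the gene's strand from GRCm39, with each CpG dinucleotide in capitals. The first 4 belong to members higher in XX cells, the others to members higher in XY cells.
Gm26787: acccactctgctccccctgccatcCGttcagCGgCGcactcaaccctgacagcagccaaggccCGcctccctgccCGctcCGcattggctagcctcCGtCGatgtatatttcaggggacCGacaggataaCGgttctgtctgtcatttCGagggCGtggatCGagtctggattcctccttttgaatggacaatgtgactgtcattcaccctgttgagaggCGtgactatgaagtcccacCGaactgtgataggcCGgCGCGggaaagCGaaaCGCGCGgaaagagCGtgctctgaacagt
Gm13269: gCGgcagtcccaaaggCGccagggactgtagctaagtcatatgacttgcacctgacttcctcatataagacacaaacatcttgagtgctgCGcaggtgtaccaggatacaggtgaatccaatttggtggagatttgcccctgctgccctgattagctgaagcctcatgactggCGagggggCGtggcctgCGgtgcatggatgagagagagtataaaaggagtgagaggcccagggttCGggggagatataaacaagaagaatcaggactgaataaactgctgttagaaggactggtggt
4930592C13Rik: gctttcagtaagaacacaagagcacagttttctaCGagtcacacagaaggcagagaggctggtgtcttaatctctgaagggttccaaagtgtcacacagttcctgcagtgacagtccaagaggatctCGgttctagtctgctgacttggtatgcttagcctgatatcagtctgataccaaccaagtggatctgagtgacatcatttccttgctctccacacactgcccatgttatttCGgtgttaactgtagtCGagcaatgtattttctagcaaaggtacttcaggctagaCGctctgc
Gm16759: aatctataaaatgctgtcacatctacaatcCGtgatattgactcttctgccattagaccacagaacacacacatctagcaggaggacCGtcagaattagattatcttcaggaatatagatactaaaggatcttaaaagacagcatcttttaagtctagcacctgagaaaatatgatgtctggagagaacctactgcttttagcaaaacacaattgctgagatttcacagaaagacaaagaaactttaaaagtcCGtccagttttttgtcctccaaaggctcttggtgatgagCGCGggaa
C78283: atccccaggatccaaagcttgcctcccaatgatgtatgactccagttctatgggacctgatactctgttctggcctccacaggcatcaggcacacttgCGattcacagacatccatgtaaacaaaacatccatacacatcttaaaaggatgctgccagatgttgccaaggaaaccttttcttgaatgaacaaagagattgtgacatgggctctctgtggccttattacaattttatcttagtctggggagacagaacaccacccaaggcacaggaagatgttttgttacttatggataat
4930471E19Rik: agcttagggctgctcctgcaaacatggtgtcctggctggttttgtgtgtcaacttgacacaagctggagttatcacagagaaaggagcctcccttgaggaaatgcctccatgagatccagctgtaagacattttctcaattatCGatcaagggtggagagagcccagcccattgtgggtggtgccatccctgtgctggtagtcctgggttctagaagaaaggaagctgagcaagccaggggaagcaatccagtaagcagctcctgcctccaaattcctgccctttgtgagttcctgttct
1700054O05Rik: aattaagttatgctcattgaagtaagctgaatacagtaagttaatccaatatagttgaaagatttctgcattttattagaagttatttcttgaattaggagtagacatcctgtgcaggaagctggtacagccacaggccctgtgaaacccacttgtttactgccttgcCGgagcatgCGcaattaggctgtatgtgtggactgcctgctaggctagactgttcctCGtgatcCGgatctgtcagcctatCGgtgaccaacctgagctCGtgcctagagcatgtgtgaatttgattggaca

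Among the 4 windows of XX-high members only that of Gm26787 was CpG-rich, here meaning at least 50% G and C and a ratio of observed to expected CpG of at least 0.6. Gm26787 (chr9:36678866-36679165, plus strand) held 23 CpG at a ratio of 0.91 and begins 141 bases from the start of Stt3a. Gm13269 (chr2:14771786-14772085, minus strand) held 7 at 0.37, 4930592C13Rik (chr3:157240588-157240887, minus strand) 5 at 0.31 and Gm16759 (chr9:63305633-63305932, plus strand) 5 at 0.44. None of the windows of the XY-high members was CpG-rich. C78283 (chr5:74102378-74102677, plus strand) and 4930471E19Rik (chr10:120564824-120565123, minus strand) held 1 CpG each, and 1700054O05Rik (chr10:35361407-35361706, minus strand) held 6.

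Over the whole list, 94 of 200 windows (47.0%) were CpG-rich. The share was 57 of 83 (68.7%) in members higher in XX cells at 72 h, 8 of 34 (23.5%) in those higher in XY cells and 29 of 83 (34.9%) in those not called. It was 30.9% of tested lncRNAs that are no members, 14.2% of all other autosomal lncRNAs and 49.9% of tested coding genes, with 57.2% and 39.5% of coding genes higher in XX and in XY cells. By position, 39 of the 46 divergent members higher in XX cells had a CpG-rich window, as had all 4 divergent members higher in XY cells. Among members that stood apart it was 7 of 12 higher in XX and 1 of 20 higher in XY cells, among antisense exon members 11 of 24 and 1 of 4, and among the few sense overlapping and antisense intronic members called, all higher in XY cells, 1 of 3 and 1 of 2. GGGCGG, the GC box, was found on either strand in 53.0% of windows of XX-high, 11.8% of XY-high and 33.7% of uncalled members. It was in 17.4% of all other lncRNA windows, 31.6% of tested lncRNAs that are no members and 49.6% of tested coding genes. Among coding genes it was in 51.9% of those higher in XX and 46.5% of those higher in XY cells. The GC box contains CG and so overlaps the capitals. In XX-high and XY-high members, CCAAT was found in 37.3% and 50%, CACGTG (E-box) in 9.6% and 5.9% and TATAAA in 9.6% and 8.8%. TGACGTCA was found in 1.2% and 0.0% of these and CNCCTCAG in 10.8% and 2.9%. The shares of all other lncRNAs were, in the same order, 34.7%, 5.7%, 13.5%, 0.9% and 7.6%. These are descriptions with no test, and the sets were formed after the calls were known.

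The comparison of XX and XY cells asks how the lncRNAs of the sexes part as the germline differentiates. A gene was called where limma's test against a fold of 1.5 gave an adjusted p under 0.05, with all 15252 genes that passed the filter on low counts in 1 fit and p-values adjusted over them by Benjamini-Hochberg. All 200 members passed the filter. Differences below are log2 values with their standard errors. At 0 h, 6 members were called between XY and XX cells, 3 higher in either sex, against 3% of all genes tested (1.34% higher and 1.65% lower in XY cells), and 3 without XY replicate 3, XX replicate 3 or XX replicate 4. At 24 h 34 were called, 20 higher and 14 lower in XY cells, against 9.99% (4% higher and 5.99% lower), and 21 without XY DMSO replicate 5. At 72 h 117 were called, 34 higher in XY and 83 higher in XX cells, against 41% (22.8% and 18.1%). The median member was 0.70 lower in XY cells at 72 h, beside 0.10 higher over all genes. The 456 tested lncRNAs that are no members had 104 higher and 94 lower in XY cells, and of the 19 members above the 200th value in every group 2 were higher and 4 lower.

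Of the 6 members called at 0 h, all but Gm26771 had libraries of the sexes that did not overlap. Gm31659, a gene on chromosome 8 near Cnot1, had 45.4, 50, 50.5 and 42.9 CPM in the XX libraries and 12.8, 7.96, 12.7 and 3.74 CPM in the XY libraries. XX libraries were all higher, and the difference was -2.57 ± 0.25 (adjusted p = 2.39e-08). Lhx1os, whose start lies by that of Aatf, had 11.7, 5.80, 4.98 and 8.35 CPM in XX and 25.6, 31.1, 22.1 and 22.5 CPM in XY libraries. Here XY libraries were all higher, by 1.95 ± 0.26 (adjusted p = 0.00014). Platr10, one of the transcripts named for their link to pluripotency, had 13.1, 8.34, 9.57 and 9.74 CPM in XX and 24.8, 28.8, 24.6 and 29.6 CPM in XY libraries, a difference of 1.53 ± 0.26 (adjusted p = 0.0165) that lost its call under 8 alternatives. Gm12059 was higher in XX cells (-1.73 ± 0.36) and lost its call under 6 alternatives. Gm16759 (-3.05 ± 0.62) and Gm26771 (1.497 ± 0.29) were also called, but neither call held once counts tied to sample indices that the pools share were taken out, and Gm26771 lost its call under 12 of 15 alternatives. Leaving out XY replicate 2 or 3 ended the call of Gm16759, any 1 library but XY replicate 2 that of Gm26771, and XY replicate 3, 5 or 6 or XX replicate 3, 4 or 5 that of Platr10, Gm12059 or both.

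Some members carry genes of snoRNAs, small RNAs that guide the modification of ribosomal RNA. The annotation places snoRNA genes inside 21 members and 55 of the 7182 other lncRNAs. Of the 21, 10 were higher in XY cells at 24 h and 0 lower, with a median difference of 1.09, beside 4% of all genes higher, and the others were not called. They were Gas5, Snhg1, Snhg3, Snhg4, Snhg12, Snhg20, Zfas1, Epb41l4aos, AI506816 and 1110038B12Rik. Snhg20 and Epb41l4aos each lost the call under 8 of 15 alternatives, and both of them and Snhg12 without XY replicate 5; leaving out XY replicate 2 or 4 or XX replicate 4, 5, 6 or 9 ended the call of Snhg20, Epb41l4aos or both. None was called at 0 h. Gas5, which gives rise to several snoRNAs, had 33.7, 37.0, 38.3 and 57.0 CPM in XX and 97.1, 123, 94.3 and 95.7 CPM in XY libraries at 24 h. All XY libraries were above all XX libraries, by 1.31 ± 0.17 (adjusted p = 0.000651). Snhg1 had 39.8, 59.1, 39.8 and 50.1 CPM in XX and 108, 112, 103 and 111 CPM in XY libraries, again without overlap (1.25 ± 0.14, adjusted p = 0.000182). 1110038B12Rik differed most of the 10, with 5.45, 7.85, 6.79 and 6.42 CPM in XX and 35.6, 33.3, 27.5 and 36.0 CPM in XY libraries (2.39 ± 0.27, adjusted p = 4.79e-07).

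From 0 to 72 h, across the pools, 12 of 21 hosts were lower and 0 higher in XX cells, with a median of -1.68, beside 18.4% of all genes lower and 18.8% higher. In XY cells 10 were lower and 2 higher, with a median of -1.27, beside 15.2% lower and 20.2% higher. Snhg1 went from a mean of 100 ± 9.71 CPM (SD, n = 4) at 0 h to 26.5 ± 4.08 CPM in XX cells, and from 116 ± 11.2 to 50.5 ± 8.42 CPM in XY cells. The 2 hosts higher in XY cells were Snhg18 (2.63 ± 0.40) and Snhg11 (3.43 ± 0.29). Snhg11 had 55.1, 46.3, 43.7 and 51.3 CPM in XY libraries at 72 h and 5.10, 0.977, 8.13 and 1.25 CPM in XX libraries. The libraries of the sexes were far apart (4.10 ± 0.41, adjusted p = 1.4e-10), and at 72 h it was not called with FGFRi (-0.01 ± 0.14) or with MEKi (-0.36 ± 0.14). At 72 h 4 hosts were higher in XY cells and 0 lower, a share near the 22.8% of all genes that were higher: Snhg4 (2.57 ± 0.48), Snhg11, Epb41l4aos, whose call was lost without XX replicate 4, and Snhg18 (1.92 ± 0.41). In the list of snoRNA hosts by name, which has 18 members, 8 were higher at 24 h and 4 at 72 h, beside 4% and 22.8% of all genes, and 0 lower at either time, beside 5.99% and 18.1%. Snhg4 shares its locus with a coding gene of the same symbol, so its counts are uncertain.

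**Figure D2:**
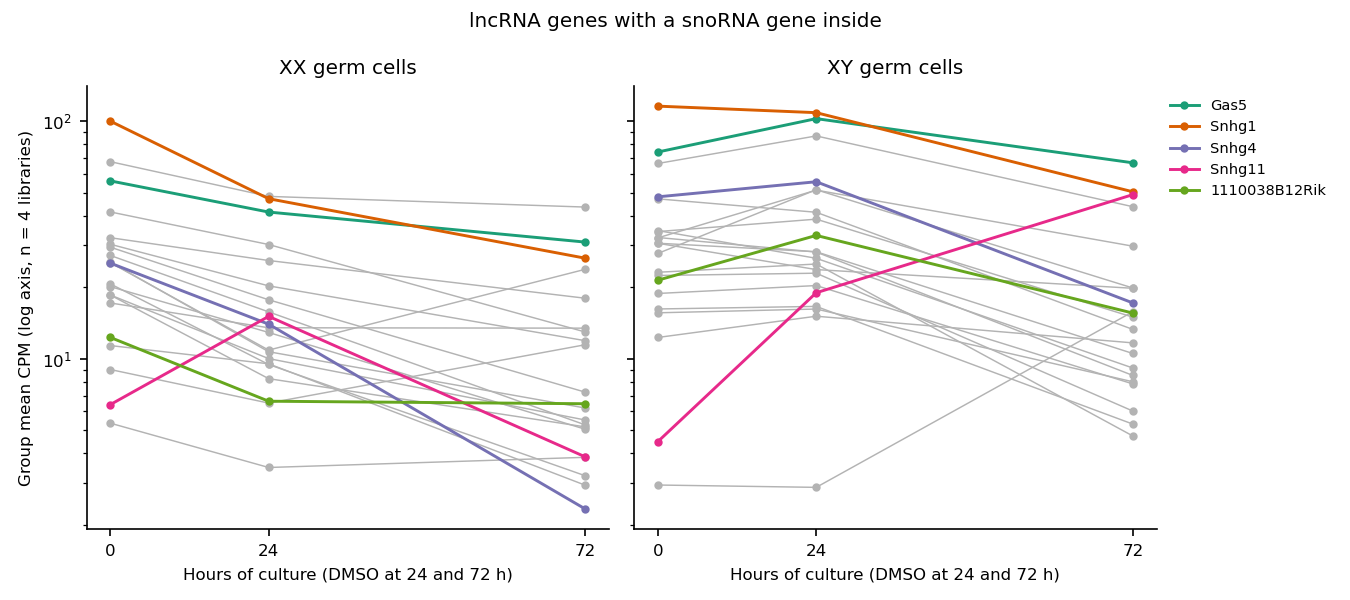
Group mean CPM on a log axis (n = 4 libraries) of the 21 members with a snoRNA gene inside, at 0, 24 and 72 h of culture in XX (left) and XY (right) cells, with DMSO at 24 and 72 h. Snhg1 falls from 100 to 26.5 CPM in XX cells, while Snhg11 stands at 49.1 CPM in XY cells at 72 h.

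At 72 h the members with the largest differences toward XX cells were at a few CPM or less in XY DMSO libraries, Gm16759 at up to 8.66 CPM. Gm26787 had 31.6, 25.4, 14.2 and 30.7 CPM in XX libraries and 0, 0.866, 0 and 0.684 CPM in XY libraries. The difference was -5.78 ± 0.68 (adjusted p = 2.31e-09), and its neighbour Stt3a, a subunit of the oligosaccharyltransferase, was also higher in XX cells (-1.60). Gm13269 had 22.9, 39.6, 23.7 and 33.2 CPM against 0.475, 1.73, 0 and 0 CPM (-5.65 ± 0.56, adjusted p = 2.39e-11). Gm16759 was far the most abundant of these genes, with 148, 168, 197 and 195 CPM in XX and 7.12, 8.66, 4.71 and 6.84 CPM in XY libraries, and differed by -4.72 ± 0.33 (adjusted p = 3.41e-16). 4930592C13Rik had 36.7, 37.1, 31.2 and 36.3 CPM against 1.42, 0.433, 2.02 and 0 CPM, again without overlap (-5.26 ± 0.51, adjusted p = 1.29e-11). Med9os, which starts 18 bases from Med9, had 32.1, 32.7, 16.3 and 23.2 CPM in XX and 0, 0.866, 4.03 and 2.05 CPM in XY libraries (-4.70 ± 0.55, adjusted p = 4.25e-09). Med9, which encodes a subunit of Mediator, was higher in XX cells too (-1.43). In each of these genes every XX library was above every XY library.

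More abundant members were among those higher in XX cells. B230354K17Rik, which starts by Cdc5l, had 340, 281, 294 and 309 CPM in XX and 116, 152, 116 and 89.5 CPM in XY libraries at 72 h (-1.49 ± 0.13, adjusted p = 2.18e-08). Bc1, a short cytoplasmic RNA known from neurons as a repressor of translation, had 205, 231, 202 and 230 CPM against 81.7, 74.0, 99.5 and 58.8 CPM (-1.59 ± 0.21, adjusted p = 4.4e-05). Neither pair of groups overlapped. Norad, which binds Pumilio proteins, went the other way, with 66.8, 57.1, 84.7 and 63.2 CPM in XX and 173, 104, 156 and 188 CPM in XY libraries (1.11 ± 0.16, adjusted p = 0.00398). At 72 h no call was made for Malat1 (0.32 ± 0.16), Oip5os1 (-0.36 ± 0.11) or Gas5 (0.96 ± 0.19), which was called by edgeR and without XY replicate 2. Of 5 members in the list of broadly expressed lncRNAs, 1 was higher and 1, Dleu2, lower in XY cells, shares near those of all genes (22.8% and 18.1%). Of 8 members in the set list of antisense-named lncRNAs, 0 were higher and 6 lower, beside 18.1% of all genes and 83 of all 200 members lower. Over the 30 tested lncRNAs of that list, members or not, 6 were higher and 11 lower. The list leaves out some such names, as Oip5os1 and Epb41l4aos. Neat1, the scaffold of paraspeckles, was higher in XX cells at 24 h (-1.54 ± 0.23, adjusted p = 0.00142) and was not called at 72 h (-0.02 ± 0.18). At 0 h it was not called either (-1.14 ± 0.28, adjusted p = 0.415), though its XX libraries (22.0, 28.3, 18.8 and 21.2 CPM) were all above its XY libraries (14.4, 10.8, 14.4 and 4.87 CPM). It was higher at 72 h than at 0 h in both sexes, across the pools.

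**Figure D3:**
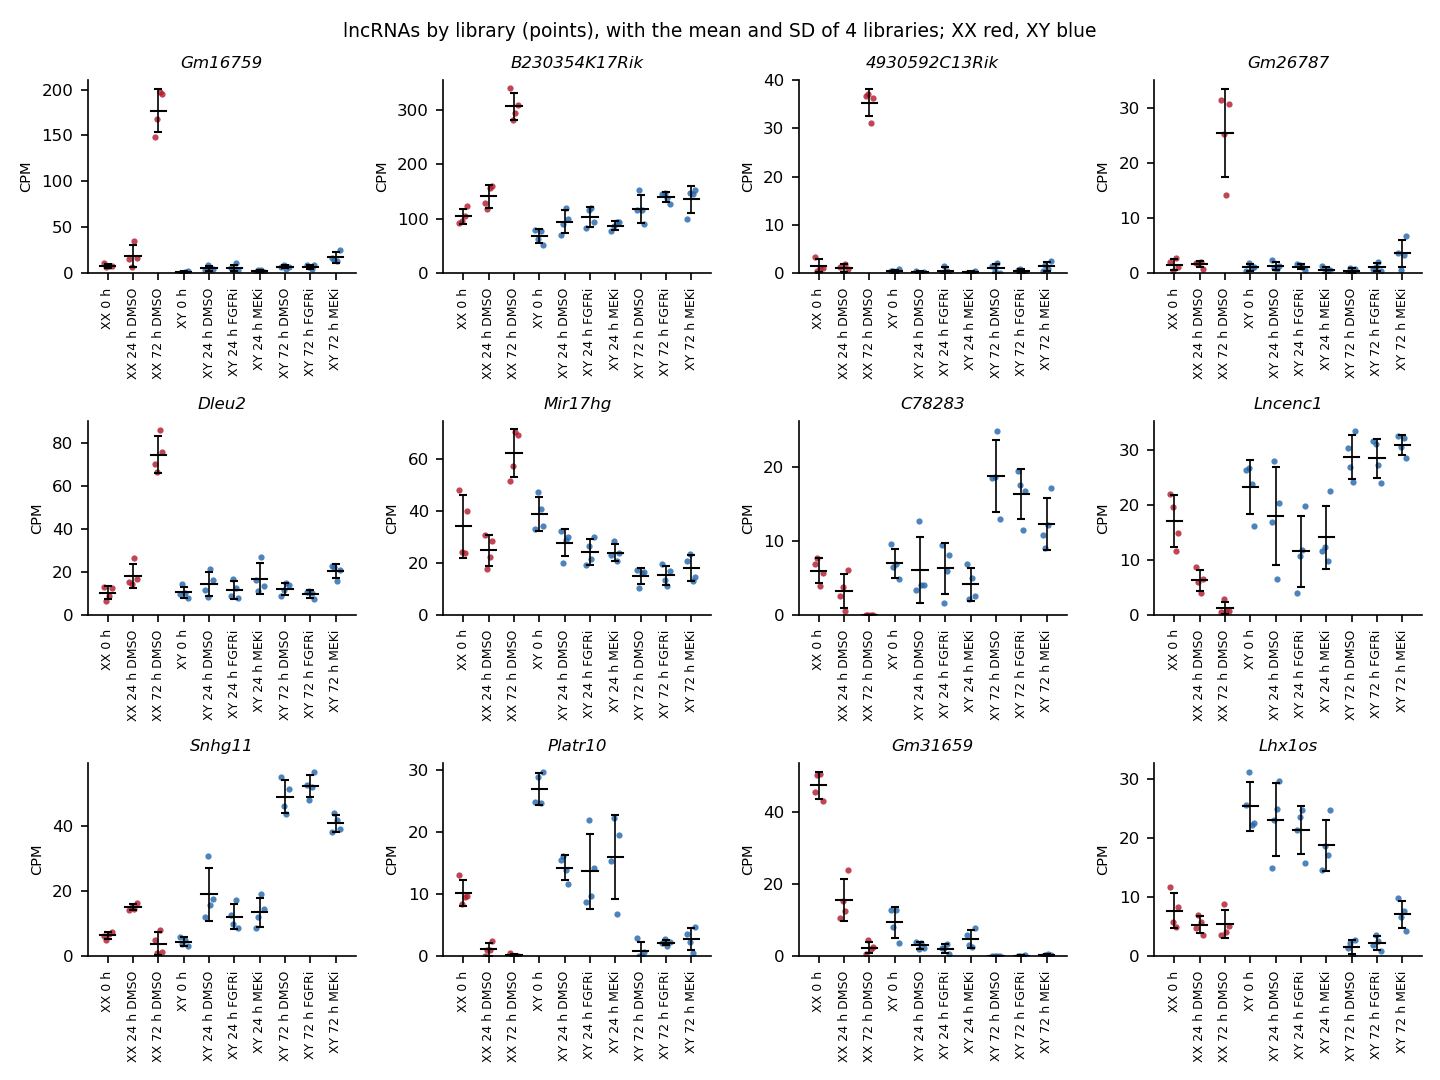
CPM by library, with the mean and SD of 4 libraries, in XX and XY germ cells across the 10 groups for 12 members, of which all but Platr10 were called between the sexes at 72 h. Gm16759 lies between 148 and 197 CPM in XX libraries at 72 h and at most 8.66 CPM in XY DMSO libraries of that time.

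The members that host miRNAs named in the annotation include 2 well-known loci, whose products were not measured here. Mir17hg carries the miR-17-92 cluster and Dleu2 carries miR-15a and miR-16-1, both of which are widely studied in cell division. Their mature sequences are from RefSeq (GRCm38.p6), with the seed, bases 2 to 8, in capitals. The cluster groups by seed, as miR-17-5p and miR-20a-5p share one and miR-19a-3p and miR-19b-3p another, while miR-15a-5p and miR-16-5p of Dleu2 share their own.
mmu-miR-17-5p: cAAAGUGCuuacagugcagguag
mmu-miR-20a-5p: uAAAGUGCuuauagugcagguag
mmu-miR-19a-3p: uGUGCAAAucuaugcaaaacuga
mmu-miR-19b-3p: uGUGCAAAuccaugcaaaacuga
mmu-miR-15a-5p: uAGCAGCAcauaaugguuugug
mmu-miR-16-5p: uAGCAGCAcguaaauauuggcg

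Mir17hg had 51.5, 57.6, 70.5 and 69.5 CPM in XX and 17.1, 10.4, 16.1 and 16.4 CPM in XY libraries at 72 h. XX libraries were all higher (-2.14 ± 0.24, adjusted p = 8.44e-08), where at 0 h they were not called apart (0.38 ± 0.17, adjusted p = 1). Dleu2 had 70.4, 66.4, 86.1 and 75.8 CPM against 8.55, 11.3, 14.8 and 13.7 CPM (-2.77 ± 0.24, adjusted p = 1.7e-11). Across the pools Dleu2 was 2.92 ± 0.22 higher in XX cells at 72 h than at 0 h (adjusted p = 1.76e-13). Dleu2 overlaps the genes of its miRNAs on the same strand, so their precursors could add to its counts. The list of lncRNAs named as miRNA hosts has 2 members, Mir17hg and Mir9-3hg, and both were lower in XY cells at 72 h, beside 18.1% of all genes; Dleu2 is not in that list by its name. Of all 9 members with a miRNA gene inside by the annotation, 6 were lower and 1 higher in XY cells. Beside this stand 83 of all 200 members lower and 34 higher, and 18.1% of all genes lower and 22.8% higher. Over the 6 tested lncRNAs named as miRNA hosts, members or not, 2 were higher and 3 lower.

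The XY-high members at 72 h included genes at 0 in XX cells. C78283 had 18.5, 18.6, 24.9 and 13 CPM in XY libraries and 0 in all 4 XX libraries, at least 44.2-fold higher against a floor of 3 counts over the group. In XX cells it had 6.87, 7.61, 3.83 and 5.57 CPM at 0 h. 4930471E19Rik had 12.8, 19.9, 22.2 and 11.6 CPM in XY libraries and 0 in the XX libraries, at least 39.4-fold higher. 1700054O05Rik had 21.4, 11.3, 21.5 and 13.7 CPM against 0, 0.488, 1.36 and 0 CPM (5.03 ± 0.64, adjusted p = 2.71e-08). Gm15389, near Serpinb8, had 46.1, 35.1, 47.1 and 25.3 CPM against 1.02, 1.47, 0.678 and 0.626 CPM (4.88 ± 0.57, adjusted p = 4.66e-09). All these XY libraries were above all XX libraries.

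Of 3 pluripotency-associated members, 2 were higher and 0 lower in XY cells at 72 h, beside 22.8% and 18.1% of all genes. Lncenc1, described in naive embryonic stem cells, had 30.4, 26.8, 24.2 and 33.5 CPM in XY and 0.510, 2.93, 0.678 and 0.626 CPM in XX libraries (4.44 ± 0.64, adjusted p = 6.7e-07). Platr14 had 46.1, 30.7, 43.0 and 64.3 CPM against 7.65, 6.84, 4.07 and 6.26 CPM (2.60 ± 0.38, adjusted p = 8.33e-06). Platr10 had fallen in both sexes by then, to means of 0.883 CPM in XY and 0.128 CPM in XX cells, and was not called between them. All 3 were lower at 72 h than at 0 h in XX cells, across the pools, beside 18.4% of all genes, while in XY cells 1 was higher, 1 lower and Lncenc1 not called, beside 20.2% higher and 15.2% lower. The call of Platr14 was lost under 6 of 15 alternatives in XX cells (among them without replicate 4, 7 or 8 at 72 h or 3 at 0 h) and under 3 in XY cells (among them without replicate 6 at either time).

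A test of the difference itself asked whether the sex difference at 72 h departed from that at 0 h, where a difference between pools common to both sexes cancels. It called 77 members, 25 with a shift toward XY and 52 with a shift toward XX cells, against 28.9% of all genes (16% and 12.9%). The largest shifts toward XX were in Gm45885 (-5.85 ± 1.07, adjusted p = 5.45e-05), Gm26787 (-5.67 ± 0.96, adjusted p = 1.66e-05) and Gm20324 (-5.54 ± 0.89, adjusted p = 6.88e-06). In XY cells at 72 h Gm45885 and Gm26787 had 3 counts each over the group, so the sizes of their shifts are imprecise. Toward XY cells 4930471E19Rik (adjusted p = 3.27e-05) and C78283 (adjusted p = 5.69e-07) passed, with no size given because both were at 0 in all XX libraries at 72 h, and Snhg11 shifted by 4.74 ± 0.54 (adjusted p = 8.46e-09). Mir17hg (-2.53 ± 0.29) and Dleu2 (-2.96 ± 0.37) also passed. Lhx1os reversed: higher in XY cells at 0 h and higher in XX cells at 72 h, with a shift of -3.97 ± 0.64 (adjusted p = 1.81e-05), though its call at 72 h alone was lost without XY replicate 5 or XX replicate 4.

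Time in culture was compared within each sex. From 0 to 24 h, within 1 pool, 8 members were called in XY cells, 5 higher and 3 lower, against 2.94% of all genes (1.61% and 1.33%), and 5 without XY replicate 2 or 6 at 0 h. In XX cells 10 were called, 5 higher and 5 lower, against 3.23% (2.32% and 0.911%). D030028A08Rik, which starts by Cdk5rap3, rose in XY cells from 9.21, 9.5, 9.33 and 11.6 CPM to 54.8, 47.4, 42.4 and 58.4 CPM. The groups stood apart (2.38 ± 0.23, adjusted p = 9.97e-08), and at 72 h the gene was at 6.65, 6.49, 8.74 and 4.78 CPM. 4933427D06Rik rose in XX cells from 2.75, 2.90, 2.68 and 5.57 CPM to 28.6, 28.2, 45.6 and 20.5 CPM (2.83 ± 0.33, adjusted p = 2.44e-06). Gm31659 fell in XX cells by 1.63 ± 0.22 (adjusted p = 0.000748). From 0 to 72 h, across the pools, 84 members were called in XY cells, 58 higher and 26 lower, against 35.5% (20.2% and 15.2%). In XX cells 133 were called, 102 higher and 31 lower, against 37.2% (18.8% and 18.4%). Among tested lncRNAs that are no members, 141 were higher and 21 lower in XY cells, and 152 higher and 48 lower in XX cells.

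Where a member had a coding neighbour that was tested, both could be set side by side at 72 h. In 71 divergent pairs the correlation of the 2 sex differences across pairs was 0.395, in 42 antisense exon pairs 0.417 and in 40 pairs that stood apart 0.370. The pairs share libraries, and genes are not independent replicates. Of 49 called divergent members, 19 had a neighbour called in the same direction, 2 in the opposite direction and 28 had a neighbour that was not called. The same counts were 11, 2 and 14 of 27 called antisense exon members and 9, 3 and 9 of 21 that stood apart. Of all genes 22.8% were higher and 18.1% lower in XY cells at 72 h. Overlapping pairs were counted by strand, but 22 members share exon bases with another gene on their own strand and are uncertain.

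**Figure D4:**
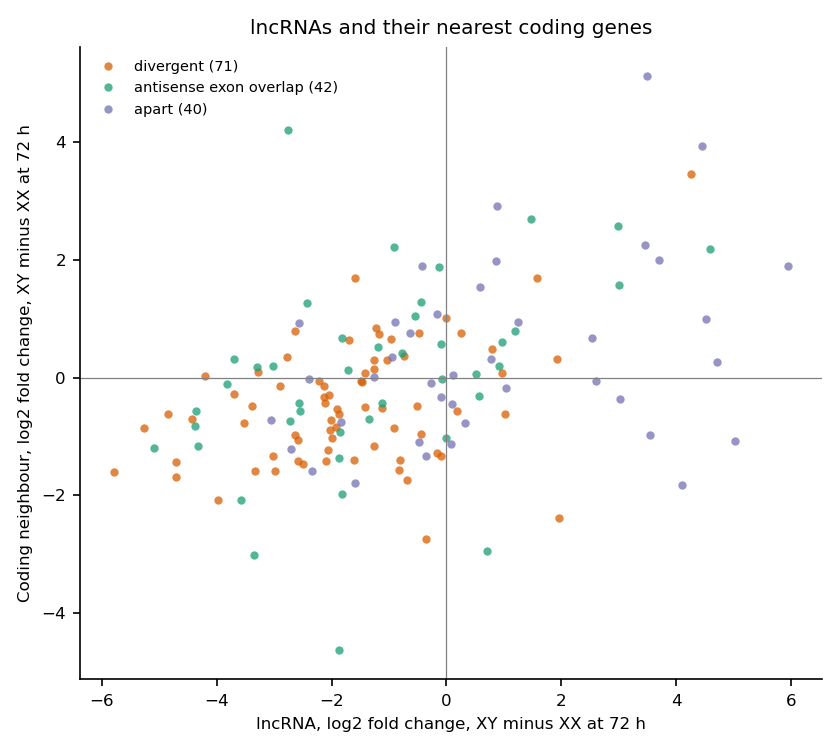
Log2 difference between XY and XX cells at 72 h in each member (horizontal axis) and in its nearest coding gene (vertical axis), one point a pair, coloured by position. The correlation across pairs was 0.395 for divergent, 0.417 for antisense exon and 0.370 for separate genes.

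Inhibitors were compared with DMSO in XY cells. FGFRi at 24 h called 0 members by limma against 0.262% of all genes (0.131% in either direction), with 7 at an unadjusted p under 0.05, and 0 by edgeR and DESeq2. MEKi at 24 h called 0 against 0.164% (0.0525% higher, 0.111% lower), with 4 at an unadjusted p under 0.05, and FGFRi at 72 h called 0 against 0.00656% (all higher, 0% lower), with 1; edgeR and DESeq2 also called 0 in both. A count of 0 does not show that levels were alike. Gm15389 was at 0 in all 4 libraries with MEKi at 24 h, against 1.44, 1.47, 2.04 and 1.59 CPM with DMSO, at least 4.57-fold lower against a floor of 3 counts over the group, a difference that was not called (adjusted p = 0.586).

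MEKi at 72 h called 18 members, 6 higher and 12 lower than with DMSO, against 9.12% of all genes (4.01% and 5.11%). Of the 456 tested lncRNAs that are no members, 3 were higher and 31 lower. The lower genes included members high in XY cells. 4930471E19Rik had 3.61, 3.34, 2.47 and 3.35 CPM with MEKi against 12.8, 19.9, 22.2 and 11.6 CPM with DMSO (-2.51 ± 0.35, adjusted p = 3.49e-05). Gm15389 had 11.3, 8.15, 17.5 and 13.4 CPM against 46.1, 35.1, 47.1 and 25.3 CPM (-1.68 ± 0.20, adjusted p = 3.99e-05). 4933412E12Rik, at 7.22, 3.55, 7.18 and 7.54 CPM against 22.8, 23.4, 25.5 and 13.7 CPM, and 1700054O05Rik (-1.70 ± 0.27, adjusted p = 0.00143) were lower too. In none of these genes did the groups overlap. Gm12204, 2900093K20Rik, 1700113A16Rik and Gm49797 were lower as well, by values of -1.36 to -2.07. Lncenc1 (0.01 ± 0.20) and Snhg11 (-0.36 ± 0.14), also high in XY cells, were not called. The count of 18 fell to 7 with no filter on low counts and to 10 with DESeq2. With no filter the calls of 4933412E12Rik, 1700054O05Rik, 2900093K20Rik, 1700113A16Rik and Gm49797 were lost, and that of Gm49797 also without 1 library (MEKi or DMSO replicate 4).

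The genes higher with MEKi included members high in XX cells. Cep83os, by Cep83, had 17, 15.5, 17.1 and 16.8 CPM with MEKi against 4.27, 2.16, 6.05 and 2.73 CPM with DMSO (2.02 ± 0.35, adjusted p = 0.00194), and 62.4 to 73.9 CPM in XX libraries. 1700018B24Rik had 85.6, 80.5, 86.7 and 93.5 CPM against 45.1, 31.6, 34.3 and 28.7 CPM (1.17 ± 0.18, adjusted p = 0.0143). The groups did not overlap in either gene. Gm26771 had 58.8, 37.4, 39.1 and 53.6 CPM against 11.9, 5.2, 7.39 and 26.0 CPM (1.97 ± 0.31, adjusted p = 0.000716); it is antisense to Sfrp2, a secreted antagonist of Wnt signalling, which was 2.35 higher. Gm26771 was not high in XX cells, where it was between 3.76 and 6.10 CPM at 72 h. Lhx1os, 1700052K11Rik and 4933427D06Rik were also higher. Of 15 alternatives, the calls of Cep83os and Gm26771 held under all, while 1700018B24Rik lost its call under 4, Lhx1os under 5, 4933427D06Rik under 8 and 1700052K11Rik under 10. At least 1 of these calls was lost without DMSO replicate 2, 4, 5 or 6 or MEKi replicate 2, 4 or 5. The XX-high Gm16759 (0.98 ± 0.35, adjusted p = 0.594) and Dleu2 (0.60 ± 0.25, adjusted p = 1) were not called, though the groups overlapped in neither gene. Gm16759 had 16, 14, 13 and 25.1 CPM with MEKi against 7.12, 8.66, 4.71 and 6.84 CPM with DMSO. Dleu2 had 22.7, 22.2, 15.5 and 21 CPM against 8.55, 11.3, 14.8 and 13.7 CPM. Both were called where an observed fold over 1.5 replaced the test against that fold. Summed over fixed marker lists, female germline and meiosis genes were at 2660 CPM with MEKi against 1008 CPM with DMSO and male germline genes at 174 against 741 CPM.

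**Figure D5:**
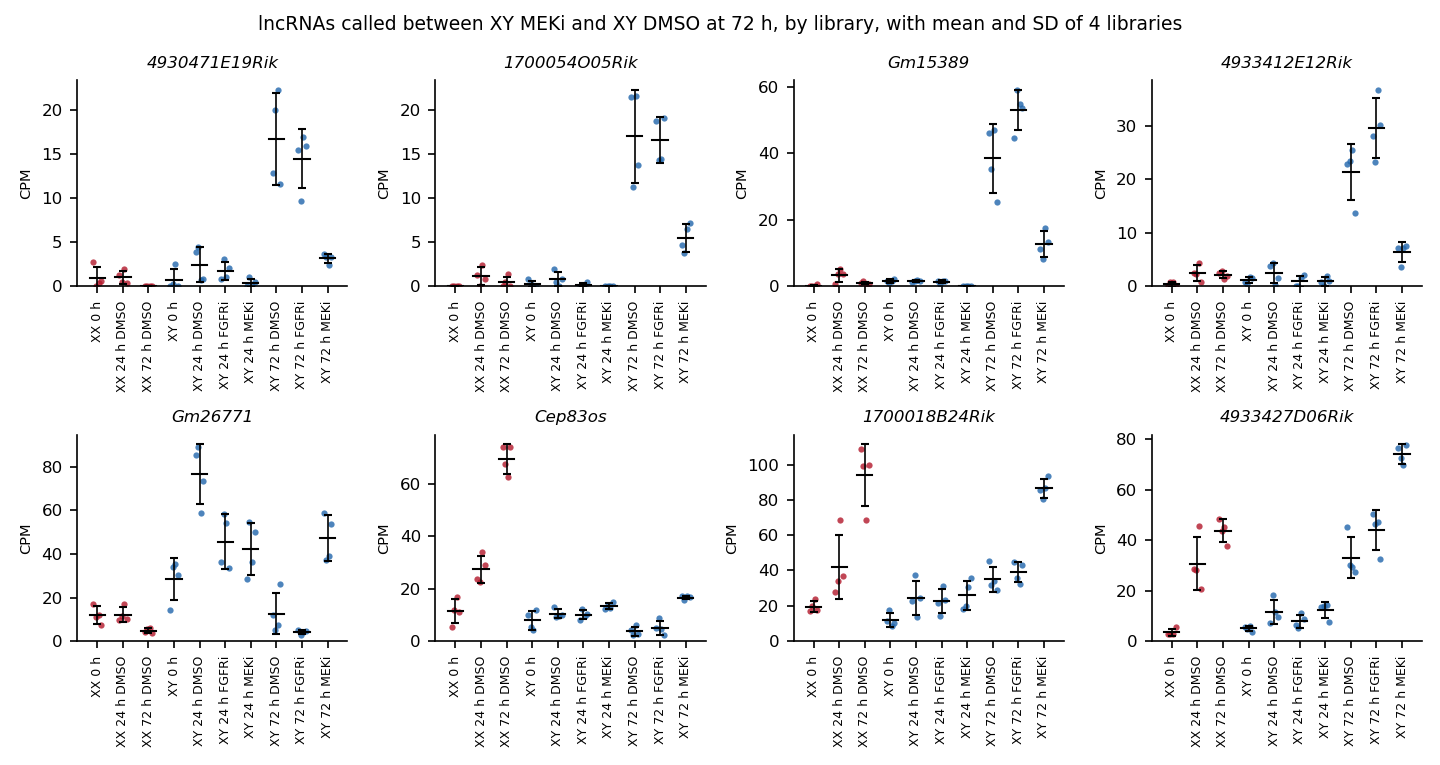
CPM by library, with the mean and SD of 4 libraries, for 8 members called between MEKi and DMSO in XY cells at 72 h, across the 10 groups. 4930471E19Rik lies between 2.47 and 3.61 CPM with MEKi and between 11.6 and 22.2 CPM with DMSO.

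The inhibitors were also compared with each other at 72 h and the same dose. Between MEKi and FGFRi 19 members were called, 8 higher and 11 lower with MEKi, against 12.7% of all genes (5.71% and 6.98%). With FGFRi Gm15389 had 44.6, 58.9, 54.9 and 53.5 CPM, all above the MEKi libraries (-2.03 ± 0.18, adjusted p = 1.06e-08). 4933412E12Rik had 28.1, 23.3, 36.7 and 30.1 CPM with FGFRi (-2.26 ± 0.26, adjusted p = 9.49e-07). Gm26771 had 5, 2.74, 4.12 and 4.42 CPM with FGFRi, all below the MEKi libraries (3.35 ± 0.37, adjusted p = 4.9e-08). Snhg18 was lower with MEKi (-1.31 ± 0.23, adjusted p = 0.015), a call lost under 4 of 15 alternatives, among them without MEKi replicate 3. The count of 19 fell to 7 with no filter on low counts, to 9 with DESeq2 and to 12 without FGFRi replicate 2. Both inhibitors were set against the same DMSO libraries above, so those comparisons are not independent of each other.

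Over all lncRNAs, members or not, the share of counts was 0.690%, 0.749% and 1.22% in XX cells at 0, 24 and 72 h and 0.672%, 0.834% and 1.10% in XY cells. With MEKi at 72 h it was 0.954% and with FGFRi 1.02%. In an exact permutation test of 4 against 4 libraries the smallest two-sided p possible is 0.02857, which 4 of 12 comparisons reached: both differences from 0 to 72 h, that from 0 to 24 h in XY cells, within 1 pool, and that between MEKi and DMSO at 72 h. Without Malat1, a setting chosen after seeing the data, the shares with MEKi and DMSO were 0.738% and 0.805%. They no longer reached that p (exact p = 0.1429), while XX against XY cells and MEKi against FGFRi at 72 h did. Over lncRNAs that are no members, a set that also lacks Malat1, the shares were 0.349% with MEKi and 0.431% with DMSO at 72 h. This difference reached the smallest p possible (exact p = 0.02857), and the set was also chosen after seeing the data. After adjustment over the comparisons the lowest p of that test over all lncRNAs was 0.08571. It was 0.06857 without Malat1 and 0.05714 over lncRNAs that are no members. With 4 comparisons over all lncRNAs at the smallest possible p, none could pass after that adjustment. So this does not show that the shares were alike.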

How the data were processed

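The authors primed RNA at the poly(A) tail with a sample index and a unique molecular identifier, mapped reads to GRCm39 with scPipe and Rsubread, and deposited whole-number counts per gene after removing duplicate identifiers; limma and edgeR are named in the submitters' processing notes. From these counts, 40391 of 42422 genes were matched to GENCODE M39; the 2031 others held 1.05% of counts. Counts gave CPM for levels. Testing used limma 3.58.1 (voom with quality weights, treat at a fold of 1.5) with edgeR 4.0.16 TMM factors (0.916 to 1.18), a filter (minimum count 10, total 15) and 1 fit over 40 libraries. R 4.3.3 and Python 3.11.15 were used, with BLAST 2.17.0 for near copies.

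Members and lists were chosen with earlier results of these data known. Genes could be named as the 20 highest members, the 5 on either side of the threshold, the 8 largest called differences without overlap in each direction of a comparison, members of set lists (snoRNA hosts, broadly expressed, pluripotency-associated, miRNA hosts, antisense-named) or neighbours of these. The list of rRNA-overlapping genes had 0 lncRNAs in the table. Genomic windows, CpG definition and hosts by annotation were defined after seeing the data, and the windows shown were revised after some had been seen.

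Alternatives were edgeR, DESeq2 1.42.0, its size factors, another fold rule, no filter, replicate numbers as a block, each library left out, members by mean level, and counts tied to 16 index names shared by the pools taken out (estimated 3.251%). The fit was tested on simulated data, where it gave no call of the wrong sign but missed most of the smaller changes and a good part of the larger ones, so a gene that was not called may still differ. Libraries are labelled as separate, but nothing in the labels ties each to its own animals, so p-values measure the spread between libraries. No 2 libraries of a group were alike within counting noise (smallest chi-square per degree of freedom 2.08). Gm10076, Gm49207, Gm45733, Gm32885, Gm46430 and 4732471J01Rik have near copies in coding genes, and their counts are uncertain.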

Additional observations from a re-analysis of the deposited data

Results flagged for a closer look

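In 276 groups of 4 libraries, 19 held a library that stood apart from the others by Dixon's test at its 95% critical value; chance gives about 1 in 20. In XX cells at 72 h, replicate 7 was highest in Malat1 (2710 CPM) and lowest in Gm10076 (135 CPM) and 4930592C13Rik (31.2 CPM). With MEKi at 72 h, B230354K17Rik was low in replicate 2 (99.0 CPM), Bc1 high in replicate 5 (214 CPM), 4933412E12Rik low in replicate 3 (3.55 CPM) and Gm4419 high in replicate 2 (10.8 CPM). In XY cells at 24 h with DMSO, Gas5 (123 CPM) and C78283 (12.7 CPM) were high in replicate 3 and Cep83os (13 CPM) in replicate 2. With FGFRi at 24 h, Oip5os1 was low in replicate 1 (64.0 CPM) and D030028A08Rik high in replicate 5 (91.4 CPM). 4933427D06Rik was low in MEKi replicate 6 at 24 h (7.71 CPM) and high in DMSO replicate 2 at 72 h (45.1 CPM). D030028A08Rik was high in XY replicate 6 at 0 h (11.6 CPM), Snhg1 low in XX replicate 3 at 0 h (85.5 CPM), Platr14 high in XX replicate 6 at 24 h (21.8 CPM) and Mir17hg low in XY DMSO replicate 4 at 72 h (10.4 CPM). The lncRNA share was high in 1 XX library at 0 h (0.7716%).

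The sex difference at 72 h differed from that at 0 h, by limma's test of the difference, in the members with the largest shifts. Toward XX cells they were Gm45885 (-5.85), Gm26787 (-5.67), Gm20324 (-5.54), 4930592C13Rik (-4.38), 4930579C12Rik (-4.07), Lhx1os (-3.97), Med9os (-3.77) and 1700052K11Rik (-3.66). Toward XY cells they were 4930471E19Rik (6.10), C78283 (5.68), Snhg11 (4.74), Gm38979 (4.62), 1700054O05Rik (3.93), Lncenc1 (3.82), Gm48170 (3.74) and 2810429I04Rik (3.67), all on the log2 scale. 4930471E19Rik and C78283 were at 0 in all XX libraries at 72 h and 1700054O05Rik in all XX libraries at 0 h, so these 3 fitted values depend on the small count added to the zeros and are no bounds.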

How the results depend on the processing

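Of 90 called differences of members that the text states, 57 were called under every alternative, 33 lost the call under at least 1, 11 of them under the replicate block alone, and 0 reversed. Of 14 stated differences that were not called, 5 were called under at least 1 alternative and 3 near 0 took both signs without a call: Neat1 between the sexes at 72 h (0.202 with the replicate block, -0.136 to 0.08 with 1 library left out), Snhg11 with FGFRi at 72 h (0.119 with no filter, 0.027 by edgeR, 0.03 by DESeq2, -0.026 to 0.046 with 1 library left out) and Lncenc1 with MEKi at 72 h (-0.055 with DESeq2 size factors, -0.006 with the block, -0.045 by DESeq2, -0.051 to 0.07 with 1 library left out). Counts of members called moved most with an observed fold over 1.5 in place of a test against it: 34 between the sexes at 0 h, 84 at 24 h, 44 and 64 from 0 to 24 h in XY and XX cells, 11 with FGFRi and 8 with MEKi at 24 h, 1 with FGFRi and 69 with MEKi at 72 h, 77 between the inhibitors and 118 in the shift of the sex difference. edgeR called 10 between the sexes at 0 h, and 14 and 33 from 0 to 24 h in XY and XX cells. DESeq2 called 5 from 0 to 24 h in XY cells, 10 with MEKi at 72 h and 9 between the inhibitors. With no filter 1 member was called with MEKi at 24 h, 7 with MEKi at 72 h and 7 between the inhibitors. Same-numbered libraries correlated between -0.123 and 0.15, so the numbers do not pair them; with the replicate block 6 were called from 0 to 24 h in XX cells, 4 with MEKi at 72 h and 6 between the inhibitors. Under the block 4930471E19Rik, Gm12204, Gm15389, 4933412E12Rik and 1700054O05Rik lost their calls in both of these, and Gm38979, Lncenc1 and 1700054O05Rik lost theirs in the shift of the sex difference, the last also by edgeR and DESeq2. The causes were not tested. Leaving out 1 library gave 3 to 6 between the sexes at 0 h (3 without XY replicate 3, XX replicate 3 or XX replicate 4), 21 to 36 at 24 h (21 without XY DMSO replicate 5) and 115 to 121 at 72 h. It gave 5 to 8 (5 without XY 0 h replicate 2 or 6) and 7 to 10 from 0 to 24 h in XY and XX cells, 76 to 81 and 129 to 135 from 0 to 72 h, 12 to 17 with MEKi at 72 h, 12 to 22 between the inhibitors (12 without FGFRi replicate 2), 62 to 78 for the shift, and 0 to 0 for the other inhibitor comparisons. The lncRNA share with FGFRi at 72 h turned to 0.005251 without Malat1 and 0.009724 without members, settings chosen after seeing the data; leaving out 1 library gave -0.03428 to 0.0095 at 0 h (without XX replicate 2) and -0.03668 to 0.0004583 with MEKi at 24 h (without DMSO replicate 3), all in percentage points. Divergent members were 80 at 2 kb. Members at a few CPM rest on few counts, and their differences are imprecise.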
